A study of Zea mays with 10 samples.

Results

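Transcript levels of 3 maize gene models listed as NAC genes of organ boundaries, GRMZM2G139700, GRMZM2G393433 and GRMZM2G430522, were measured in young ears with and without functional FEA4 (FASCIATED EAR4), a bZIP transcription factor that limits shoot meristem size. They were taken by their IDs, a choice made with earlier results of these data known, from the 39636 gene models of the expression table, and all 3 were among the 20618 models with enough fragments to be tested. The names nam1, nam2 and cuc3 had been given to them in the order above. The RefSeq gene table gives nam1, together with CUC2 and NAC119, to GRMZM2G393433, which is nam2 in that order, and 2 of the 3 models, GRMZM2G139700 and GRMZM2G430522, have no entry there. The models are therefore called by their IDs, and that these 2 are NAC genes rests on the list they came from.

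NAC proteins are plant transcription factors that share a DNA-binding domain named after NAM of petunia and ATAF and CUC of Arabidopsis. NAM and the CUC genes are active in the narrow bands of cells that separate a meristem from the organs it makes, and neighbouring organs, from embryonic leaves to floral organs, fuse when these genes are lost. In Arabidopsis they restrain growth in the boundary, are needed to form the shoot meristem and its class I KNOX homeobox activity, and help to start axillary meristems. An ear primordium makes many such boundaries, since its inflorescence meristem gives rise to rows of branch, spikelet and floral meristems.

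Ear primordia 1 mm long had been collected in 3 pools from homozygous fea4/fea4 mutants and in 3 pools from heterozygous fea4/+ plants of normal appearance, called siblings here, both from segregating families grown in the field. Each pool held more than 10 ears, so 1 pool is 1 replicate. The siblings carry 1 mutant copy, and no homozygous wild-type ear was measured. The reference allele of fea4 came from chemical mutagenesis of the inbred A619 and was crossed into various inbreds; the labels do not say which inbred or which allele the pools carried. The FEA4 transcript (GRMZM2G133331) had 102, 101 and 142 fragments in sibling pools 1 to 3 and 156, 44 and 156 in mutant pools 1 to 3, so its abundance did not check the genotype labels. Libraries held 8168941 to 28323253 fragments, and mutant pool 2 was the shallowest. Genes that mark the tissue were present: the meristem gene kn1 had 565 FPKM ± 50.4 in siblings and 581 FPKM ± 107 in mutants (SD, n = 3 each), where FPKM is fragments scaled for the length of the gene model and the library total. A list of 31 photosynthesis models, which shared name stems had widened, summed to 218 to 229 FPKM in sibling pools and 219 to 234 FPKM in mutant pools, and its members rcalm, pep7 and pep had means of 58.7, 41.0 and 32.5 FPKM over all pools. Its member pdk1 (GRMZM2G306345) was higher in mutants, with 5.47, 7.07 and 7.94 FPKM in sibling pools and 16.4, 12.7 and 23.2 FPKM in mutant pools. Its log2 fold change, mutant over sibling, was 1.49 (edgeR adjusted p = 0.000893), and the call held on leaving out any one library. The other 11 tested members did not pass an edgeR adjusted p under 0.05. Within the list, 8 Rubisco small subunit and light-harvesting models, picked after the values were seen, summed to 0 to 38 fragments in a sibling pool and 0 to 13 in a mutant pool, and 2 of them were listed at 0 in every library. The anther genes ms8 and ms23 were at 0 in all 6 libraries.

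GRMZM2G430522 had the strongest decrease of the 3 models. It had 1266, 1030 and 1297 fragments in sibling pools 1 to 3 and 529, 264 and 783 fragments in mutant pools 1 to 3. Per length and depth that was 40.0, 31.5 and 32.03 FPKM in siblings and 14.6, 19.1 and 16.2 FPKM in mutants. Every mutant pool lay below every sibling pool, and the gap between the groups was wider than the range within either. In the fit across all genes its log2 fold change, mutant over sibling, was −1.16 ± 0.14 (SE; 95% interval −1.45 to −0.87), with a p of 0.000216 by edgeR after Benjamini-Hochberg (BH) adjustment over all tested models. The fitted mutant level was 44.8% of the sibling level. By unadjusted p it ranked 9 among the 20618 models, and 42 of the 223 models that fell had a more negative log2 fold change. These are pools of whole ears, so fewer boundary cells and less RNA per cell cannot be told apart.

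GRMZM2G393433, the model that RefSeq names nam1 or CUC2, fell less. Its fragments were 1185, 1024 and 1373 in sibling pools 1 to 3 and 784, 362 and 1131 in mutant pools 1 to 3. Its level was 50.4, 39.4 and 45.8 FPKM in siblings and 29.0, 32.1 and 29.8 FPKM in mutants. The groups again did not overlap, and the mutant pools lay closer together than the sibling pools. The log2 fold change was −0.63 ± 0.12 (SE; 95% interval −0.88 to −0.37; edgeR adjusted p = 0.00924), a fitted mutant level of 64.8% of the sibling level. The call was lost without sibling replicate 1, mutant replicate 1 or mutant replicate 3 (edgeR adjusted p = 0.0759, 0.0533 and 0.0592), and by limma on log2(FPKM + 1), where the log2 fold change was −0.56 and the adjusted p was 0.0543. That of GRMZM2G430522 held on leaving out any one library, with log2 fold changes of −1.25 to −1.02 and edgeR adjusted p of 0.000629 to 0.00289, and by limma on the same scale (−1.01, adjusted p = 0.019).

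GRMZM2G139700 was a low transcript with no detectable change. It had 62, 58 and 86 fragments in sibling pools 1 to 3 and 57, 35 and 103 in mutant pools 1 to 3. Its level was 3.35, 2.87 and 3.64 FPKM in siblings and 2.69, 3.96 and 3.47 FPKM in mutants. The groups overlapped, and both the lowest and the highest value were in mutant pools. The highest came from mutant pool 2, where its 35 fragments have an exact Poisson 95% interval of 24.4 to 48.7, which covers counting error only. The log2 fold change was −0.02 ± 0.37 (SE; 95% interval −0.81 to 0.76; edgeR adjusted p = 0.986). That interval includes a decrease as large as the fitted one of GRMZM2G393433 but not one as large as that of GRMZM2G430522. Its sign turned in some repeats, with log2 fold changes between −0.14 and 0.12 on leaving out each library in turn.

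**Figure D1:**
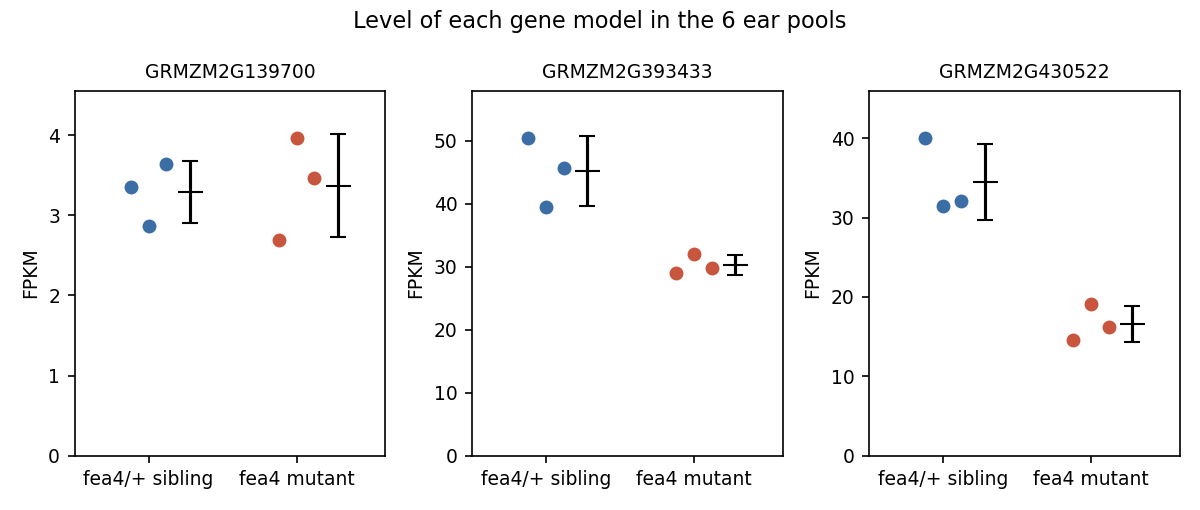
Level in FPKM of each gene model in the 3 sibling pools (blue) and the 3 mutant pools (red), in replicate order from left to right, with the mean and SD in black; each panel has its own axis from 0. GRMZM2G393433 and GRMZM2G430522 are lower in every mutant pool than in any sibling pool, whereas GRMZM2G139700 lies between 2.69 and 3.96 FPKM with the groups mixed.

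Of all tested models, 2.48% passed the threshold of an edgeR adjusted p under 0.05 (512 models), 1.08% as lower in the mutant (223 models) and 1.4% as higher, against 2 of these 3, both lower. The 2 also passed as lower by DESeq2, as did 1.79% of all models (2.65% as higher), and GRMZM2G430522 alone passed by limma on log2(FPKM + 1), as did 0.334%. At an unadjusted edgeR p under 0.05, 7.71% of all models were lower and 8.48% higher. Detection depends on level, so the share was also taken among models within 0.5 log2 CPM (fragments scaled to the library total alone) of each one. It was 3.03% near GRMZM2G430522, 3.45% near GRMZM2G393433 and 1.31% near GRMZM2G139700. The groups did not overlap in 20.7% of all tested models, in 10.5% with the mutant lower, so non-overlap alone is common in these libraries. In the authors' deposited table, where 0.641% of models with an adjusted p were lower past the same threshold, the log2 fold changes were −1.15 for GRMZM2G430522 (adjusted p = 2.07e-05), −0.62 for GRMZM2G393433 (adjusted p = 0.00433) and −0.01 for GRMZM2G139700 (adjusted p = 1.0). The authors' deposited values come from DESeq on the same libraries and are not a second measurement.

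The order of the 3 levels per length was the same in all 6 pools. GRMZM2G393433 was highest, with means of 45.2 FPKM ± 5.53 in siblings and 30.3 FPKM ± 1.61 in mutants (SD, n = 3 each). GRMZM2G430522 followed with 34.5 FPKM ± 4.77 and 16.6 FPKM ± 2.31, and GRMZM2G139700 had 3.29 FPKM ± 0.39 and 3.37 FPKM ± 0.64 (SD, n = 3 each). In siblings the ranges of the first and second overlapped between pools (39.4 to 50.4 and 31.5 to 40.0 FPKM), although GRMZM2G393433 was higher within each pool. In mutants they did not overlap. Among models above 0 FPKM in a library, GRMZM2G393433 stood at percentiles 86.5 to 90.0 in siblings and 80.7 to 81.6 in mutants. GRMZM2G430522 moved from percentiles 82.1 to 86.6 down to 65.7 to 70.1, and GRMZM2G139700 stood at 33.5 to 38.5 over all pools. Together the 3 models had 83.0 FPKM ± 10.1 in siblings and 50.3 FPKM ± 4.53 in mutants (SD, n = 3 each).

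Ratios between the models within a pool do not depend on library scaling, and they describe the balance between the models. They come from the same values as the fold changes above and are not added evidence. The FPKM ratio of GRMZM2G430522 to GRMZM2G393433 was 0.793, 0.799 and 0.7 in sibling pools 1 to 3 and 0.502, 0.595 and 0.542 in mutant pools 1 to 3. On the log2 scale of CPM the mutant mean was lower by 0.53, with an SD of 0.09 in siblings and 0.06 in mutants. On the log2 scale of FPKM it was lower by 0.48. The length scaling in the deposited FPKM varied somewhat between pools, and CPM does not use it. The ratio was lower in every mutant pool than in any sibling pool, but 3 pools against 3 cannot give less than 0.1 in a two-sided exact permutation test, and p was 0.1 (0.12 with Benjamini-Hochberg adjustment over 6 ratios). GRMZM2G430522 had 11.9, 10.98 and 8.8 times the FPKM of GRMZM2G139700 in sibling pools and 5.4, 4.82 and 4.66 times in mutant pools. GRMZM2G139700 had 0.0664, 0.0728 and 0.0796 times the FPKM of GRMZM2G393433 in sibling pools and 0.0929, 0.123 and 0.116 times in mutant pools. Neither of these ratios overlapped between the groups, and each had an exact permutation p of 0.1 (0.12 adjusted). The share of GRMZM2G430522 in the sum of the 3 was 41.6% ± 1.92 in siblings and 32.9% ± 1.6 in mutants, that of GRMZM2G393433 54.5% ± 1.5 and 60.4% ± 2.26, and that of GRMZM2G139700 3.98% ± 0.456 and 6.67% ± 0.739 (SD, n = 3 each).

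**Figure D2:**
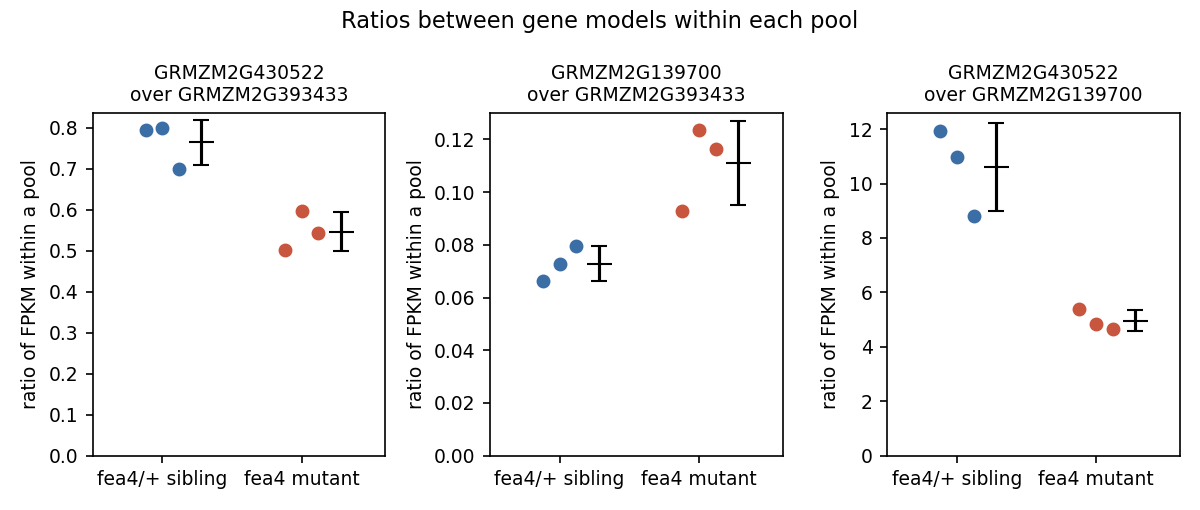
Ratio of the FPKM values of 2 gene models within each pool, for the 3 sibling pools (blue) and the 3 mutant pools (red), in replicate order, with the mean and SD in black; axes start at 0. The groups do not overlap in any panel: GRMZM2G430522 over GRMZM2G393433 lies at 0.7 to 0.799 in siblings and 0.502 to 0.595 in mutants.

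The models were also set against kn1, a class I KNOX gene that marks the meristem. Its level was 514, 615 and 564 FPKM in sibling pools 1 to 3 and 486, 697 and 558 FPKM in mutant pools 1 to 3, with the groups overlapping (log2 fold change 0.0 ± 0.12, SE, edgeR adjusted p = 0.992). Relative to kn1, GRMZM2G430522 was lower by 1.13 on the log2 scale and GRMZM2G393433 by 0.60, and in both cases the groups did not overlap (exact permutation p = 0.1, the smallest possible). For GRMZM2G139700 the groups overlapped, with a difference of −0.01 (exact permutation p = 1.0), a sign that turned on leaving out 4 of the 6 libraries in turn.

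Beyond these models, 1 other named gene of the NAC family passed the edgeR threshold. A list of 30 models, these 3 and 27 others with a NAC, NAM or CUC name in RefSeq, held 15 tested models, of which 2 were lower, 1 was higher and 12 did not pass (2 and 1 also by DESeq2, and at an unadjusted edgeR p under 0.05). That was 20.0% of the tested models, or 8.33% without these 3, against 2.48% of all tested models. The 2 lower ones were GRMZM2G430522 and GRMZM2G393433. Without the 3 models, 1 of 12 tested was higher and 0 were lower by edgeR (0 also by DESeq2 and at an unadjusted p under 0.05), and their median log2 fold change was 0.13, against −0.01 over all tested models. The higher one was NAC61 (GRMZM2G003715), with 20.0, 18.9 and 20.8 FPKM in sibling pools and 27.6, 24.2 and 41.0 FPKM in mutant pools. Its log2 fold change was 0.60 ± 0.15 (SE; BH-adjusted p = 0.0348). The groups did not overlap, but mutant pool 3 stood far above the others, and the call was lost without that pool or without any one sibling pool (edgeR adjusted p up to 0.321). The call was also lost in every limma fit (adjusted p = 0.139 to 0.278).

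In siblings GRMZM2G393433 and GRMZM2G430522 were ranks 1 and 2 of the 30 NAC models by mean FPKM, ahead of NAC61 (19.9 FPKM ± 0.956) and NAC12 (GRMZM2G125777, 19.4 FPKM ± 1.26; SD, n = 3 each). In mutants they were ranks 2 and 4, behind NAC61 at 31.0 FPKM ± 8.87 and, for GRMZM2G430522, behind NAC12 at 20.6 FPKM ± 2.22 (SD, n = 3 each). The mutant range of NAC61 included all 3 mutant values of GRMZM2G393433, so their order there was not beyond the spread. The mutant ranges of NAC12 (18.3 to 22.8 FPKM) and GRMZM2G430522 (14.6 to 19.1 FPKM) overlapped as well. NAC12 itself had a log2 fold change of 0.06 ± 0.12 (SE; BH-adjusted p = 0.867). GRMZM2G139700 was rank 9 in both groups, and 13 of the 30 models had a mean of at least 1 FPKM.

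Some regulators of axillary meristems also fell. A list of boundary and axillary meristem genes, called the axillary meristem list below, held 26 models, none of them a NAC gene. It also took in models with a LOB name and lg1 to lg4, so its counts are not of axillary meristem regulators alone. Of the 26 models 20 were tested, and of these 4 fell, 0 rose and 16 did not pass (8 lower and 0 higher at an unadjusted edgeR p under 0.05, 3 and 0 by DESeq2). Like the other lists, this one was chosen with earlier results of these data known, so its shares are not support. The share that fell was 20.0%, against 1.08% of all tested models. Unadjusted, 8 of the 20 were lower, against 7.71% of all tested models. The median log2 fold change of the 20 was −0.30, against −0.01 over all tested models, and 13 of the 20 were negative. The 4 were ra3, BA1, ra1 and bd1. ra3, a trehalose-6-phosphate phosphatase gene of the RAMOSA pathway expressed at the base of axillary meristems, had 74.5, 70.9 and 66.6 FPKM in sibling pools and 32.9, 35.5 and 32.2 FPKM in mutant pools. Its log2 fold change of −1.11 ± 0.10 (SE; BH-adjusted p = 2.32e-05) was close in size to that of GRMZM2G430522; the difference was not tested. BA1, a bHLH factor gene needed to start axillary meristems and expressed in the boundary above them, had 26.8, 28.2 and 30.2 FPKM in sibling pools and 15.5, 15.7 and 14.7 FPKM in mutant pools.

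The log2 fold change of BA1 was −0.95 ± 0.17 (SE; BH-adjusted p = 0.00399), and neither it nor ra3 lost its call on leaving out any one library (highest edgeR adjusted p = 0.0348 and 0.000454). The zinc finger gene ra1, which acts in spikelet pair meristem determinacy, had −1.31 ± 0.34 (SE, edgeR adjusted p = 0.0451). By limma on log2(FPKM + 1) ra1 did not pass (adjusted p = 0.0679). The AP2/ERF factor gene bd1, of spikelet meristem identity, had 55 fragments in all, each of them from a sibling pool (edgeR adjusted p = 0.032). It passed the filter on low counts only through the sibling pools, where it was high, so its call is not support. DESeq2 gave bd1 no adjusted p, and the limma fits with the filter left it out. The calls of ra1 and bd1 were each lost on leaving out 5 of the 6 libraries in turn: ra1 kept its call only without mutant replicate 1 and bd1 only without sibling replicate 3, and edgeR adjusted p rose to 0.243 and 0.201. The abundant members included rel2, a corepressor gene, at 101 FPKM ± 6.01 in siblings and 95.5 FPKM ± 5.26 in mutants (SD, n = 3 each), with a log2 fold change of −0.11 ± 0.09 (SE; BH-adjusted p = 0.617). lg2, a bZIP factor gene of the blade and sheath boundary of the leaf, had 0.10 ± 0.23 (SE; BH-adjusted p = 0.887).

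KNOX homeobox genes, which act with CUC genes in Arabidopsis, gave 1 lower model, 0 higher and 8 not past the threshold among 9 tested (5 lower and 0 higher unadjusted, 2 and 0 by DESeq2). The share that fell was 11.1%, against 1.08% of all tested models. Unadjusted, 5 of the 9 were lower, against 7.71% of all tested models. Among these 5, lg3 and lg4 are also among the 8 of the axillary meristem list, so the lists are not separate observations. The lower one was gnarley1, with 11.2, 13.5 and 11.7 FPKM in sibling pools and 6.55, 4.74 and 7.48 FPKM in mutant pools. Its log2 fold change was −0.97 ± 0.20 (SE; BH-adjusted p = 0.0121), and the call was lost without sibling replicate 2 (0.0683) and by limma on log2(FPKM + 1) (0.0556). Its abundant relative lg3 had a value of −0.34 ± 0.11 on the same scale (SE; BH-adjusted p = 0.121) and did not pass, although its groups did not overlap. The median over the 9 was −0.34, against −0.01 over all tested models. TCP factor genes, some of which repress CUC genes in Arabidopsis, gave 0 calls among 7 tested by edgeR, against 2.48% of all tested models. At an unadjusted edgeR p under 0.05, 1 was lower and 0 higher (7.71% and 8.48% of all tested models), and DESeq2 called 0. So few models cannot show whether these counts differ from those shares. Their median log2 fold change was −0.27, against −0.01 over all tested models. The largest mean levels in that list were TCP12 (9.24 FPKM ± 0.8 in siblings and 11.3 FPKM ± 1.03 in mutants), BAD1 (7.1 FPKM ± 1.69 and 4.22 FPKM ± 0.833) and TCP30 (1.99 FPKM ± 0.899 and 3.03 FPKM ± 1.49; SD, n = 3 each). BAD1 also stands in the axillary meristem list and had a log2 fold change of −0.81 ± 0.28 (SE; BH-adjusted p = 0.134).

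**Figure D3:**
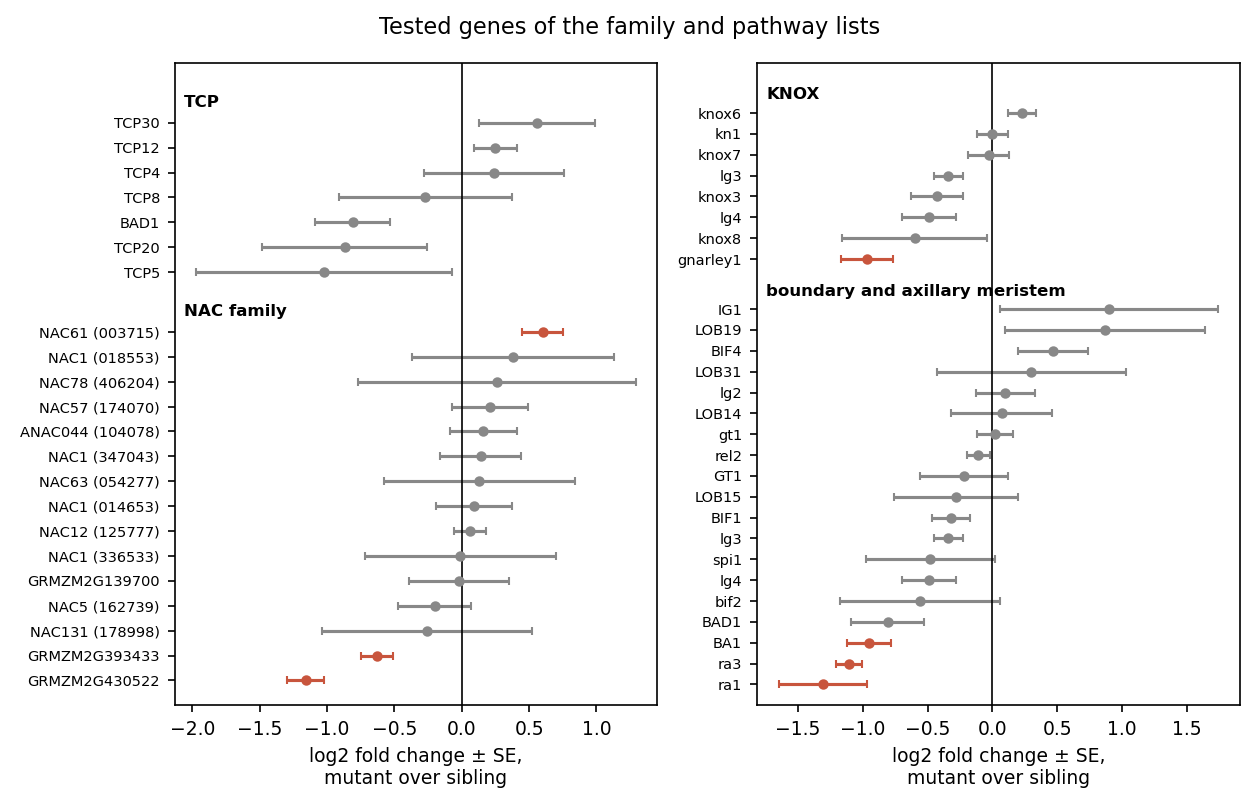
Log2 fold change, mutant over sibling, with its SE for the tested genes of the NAC and TCP lists (left) and of the KNOX and axillary meristem lists (right); red marks an edgeR adjusted p under 0.05, and digits after a NAC name are the last digits of its gene model ID. GRMZM2G430522 (−1.16) and GRMZM2G393433 (−0.63) are the red points on the negative side of the NAC list, NAC61 (0.60) is the one on the positive side, and bd1, at 0 in all mutant pools, is not drawn, nor is 1 KNOX gene.

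The genes with a RefSeq name whose levels followed each model most closely over the 6 pools were found by Pearson's r of log2 CPM among 1781 tested genes, as a description that takes in the shared difference between genotypes. For GRMZM2G430522 they were sfp7 (r = 0.989), D8 (0.983), which encodes a DELLA repressor of gibberellin response, and ra3 (0.982). D8 had mean levels of 28.2 FPKM in siblings and 17.5 FPKM in mutants. For GRMZM2G393433 they were ocl4 (r = 0.974), an HD-ZIP IV homeobox gene of the epidermis, mrpi-1 (0.972) and nfc103 (0.968), with ocl4 at 38.3 FPKM in siblings and 23.7 FPKM in mutants. For GRMZM2G139700 they were pdi3 (r = 0.952), RSZ28 (0.942) and RHL2 (0.935), none of which passed the threshold (edgeR adjusted p = 0.98, 0.757 and 0.955). Of the others, sfp7, mrpi-1 and nfc103 did not pass either (edgeR adjusted p = 0.0773, 0.122 and 0.241), whereas D8, ra3 and ocl4 passed. The lists of closest genes for the 3 models had no gene in common. With only 3 genes per model out of 1781, this does not show that the models differ.

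**Figure D4:**
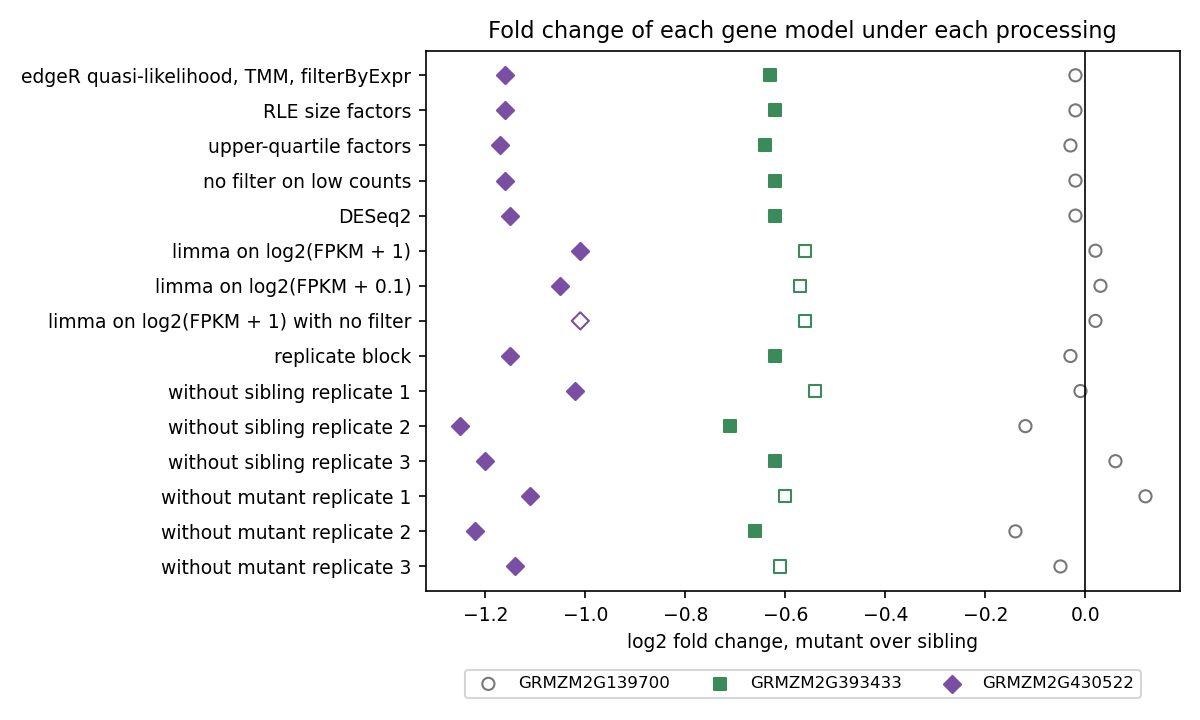
Log2 fold change, mutant over sibling, of GRMZM2G139700 (circles), GRMZM2G393433 (squares) and GRMZM2G430522 (diamonds) under each processing and with each library left out; filled symbols have an adjusted p under 0.05. GRMZM2G430522 stays between −1.25 and −1.01 and GRMZM2G393433 between −0.71 and −0.54, whereas GRMZM2G139700 lies on both sides of 0.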

How the data were processed

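RNA-seq of 6 ear pools was used, with groups and replicate numbers from the sample titles; the ChIP-seq peak lists were not used here, because no gene positions in their build were at hand. Per the file headers, the authors deposited raw fragments per gene, which are expected counts (25.8% of tested models had a fraction in some library; the 3 models were whole in all). FPKM values of the same genes, scaled by the authors for length and library total, were deposited beside them. The authors deposited a mean normalised signal per group, a fold ratio, a log2 fold change and p-values, all from DESeq per the file headers. The tools named in the submitters' processing notes are CASAVA, TopHat2 (2.0.9), Cufflinks (2.0.2) and DESeq (version 1.14.0). Not given in the sources used here are their roles, the build, the annotation, the use of strand and each library's sequencing lane. An overlapping antisense gene, or fragments shared with a close copy, could therefore not be told apart from these models.

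Expected counts were rounded, and edgeR (version 4.0.16, under R 4.3.3) was run on them (quasi-likelihood, TMM, filterByExpr, robust, genotype only, two-sided) over 20618 models. Benjamini-Hochberg adjusted p under 0.05 was the threshold. SE is the absolute log2 fold change over the root of the F statistic. TMM factors were 0.9657 to 1.035, 1 CPM stood for 8.15 to 27.3 fragments, and the biological coefficient of variation was 20%. On simulated counts for this comparison (20238 models), 26.6%, 60.0% and 80.6% of genes changed by 0.5, 1 and 2 on the log2 scale were recovered, with 0 false calls. Chi-square over degrees of freedom between replicates of a group was 9.36 to 17.1, above sampling noise, so each counted as 1 sample. Alternatives used DESeq2 1.42.0, limma 3.58.1, other scalings and filters, a replicate block and leaving out each library. Exact permutation tests ran in Python 3.11.15.

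The 3 models and all lists were chosen with earlier results of these data known. Names came from RefSeq (Zm-B73-REFERENCE-NAM-5.0, symbols and synonyms), in which 18255 of 39636 IDs matched exactly 1 entry, so lists hold only named genes. Named in the text are the 3 models, kn1, list genes past the threshold or among the highest 3 by FPKM, and the 3 closest genes to each model by r; lg2, as another boundary gene, was added after values were seen. The values of 1 KNOX gene that the rule names are not reported here. The photosynthesis list (31 models) also took in other genes by shared stems, such as pyruvate dehydrogenase kinases. Of its 12 tested models 1 was higher and 0 lower. That was 8.33%, against 2.48% of all tested models (1.4% higher and 1.08% lower). The higher one was pdk1 (GRMZM2G306345), and its name stem does not class it with those kinases.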

Additional observations from a re-analysis of the deposited data

How the results depend on the processing

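GRMZM2G430522 and GRMZM2G393433 stayed lower in the mutant under all 14 alternatives run. GRMZM2G430522 lost its call in 1 of them, limma on log2(FPKM + 1) with no filter (−1.01, adjusted p = 0.121), where 3 models in all passed (2 higher, 1 lower), none in the NAC list (0) and 1 in the axillary meristem list. GRMZM2G393433 lost its call there (−0.56, adjusted p = 0.144), by limma on log2(FPKM + 1) with the filter (−0.56, 0.0543), by limma on log2(FPKM + 0.1) (−0.57, 0.0558) and in 3 of 6 cases of leaving out 1 library (log2 fold changes −0.71 to −0.54). GRMZM2G139700 had a positive sign by limma with a pseudocount of 1, with and without the filter (0.02), and of 0.1 (0.03), and ran from −0.14 to 0.12 on leaving out each library; its ratio to kn1 ran from −0.17 to 0.08 (0.08, 0.07, 0.03 and 0.01 without sibling replicate 1, sibling replicate 3, mutant replicate 1 and mutant replicate 2). The other 5 ratios kept their sign in every repeat. The causes were not tested.

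The number of changed models depended more on the processing. It was 922 with no filter (544 higher, 378 lower), 894 by DESeq2 (534 and 360), 189 in the limma fit with a pseudocount of 1 (126 and 63) and 175 with 0.1 (117 and 58). Leaving out 1 library gave 156 to 811 (95 to 516 higher, 61 to 295 lower), the highest without the shallow mutant replicate 2. In both limma fits with the filter 1 model passed in the NAC list and 2 in the axillary meristem list. Of all models in these fits, 1.0% passed with a pseudocount of 1 and 0.929% with 0.1. Leaving out 1 library gave 1 to 3 and 2 to 3 in the 2 lists, against 0.738% to 3.8% of all models. With the replicate number as a block, 719 models passed (453 higher), and the log2 fold changes were −1.15, −0.62 and −0.03 for GRMZM2G430522, GRMZM2G393433 and GRMZM2G139700 with the same calls. Deviations of same-numbered pools correlated at 0.00579, −0.0113 and −0.0263, which gave no sign of pairing across all genes. The labels do not say whether same-numbered pools were collected or processed together, and these values cannot settle it. At 35 to 103 fragments per library, depth limits what can be said of GRMZM2G139700.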
